A study of Mus musculus with 18 samples.

Results

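The secreted lipocalins Mup4, Mup5, Obp1a, Obp1b, Lcn3, Lcn4 and Lcn11 were followed through the lacrimal glands (LGs) of 2 mouse strains and 3 ages. The members were chosen by their gene symbols in the count table and make up 7 of its 54232 genes. All 7 symbols were found, each with 1 Ensembl gene that overlaps no other annotated gene. In total, 18 male mice were sequenced, with 3 mice in each of 6 groups of strain and age and 1 LG library per mouse. One strain was BALB/cJ (BALB/c), used as the healthy control, and the other was NOD.B10Sn-H2b/J (NOD.H-2b), an inbred model of Sjögren's syndrome in which the LG of males becomes inflamed. Both were sampled at 2 months (2M), 4 months (4M) and 6 months (6M). No mouse was treated, so each comparison is between whole inbred backgrounds or between ages, and the strains differ at many loci besides those of the members. Each library holds a whole gland with all of its cell types.

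Lipocalins are small secreted proteins that fold into a barrel with a pocket for small hydrophobic molecules. Major urinary proteins (Mup genes) and odorant-binding proteins (Obp genes) carry pheromones and odorants in urine, saliva, tears and nasal mucus of rodents, and the Mup genes of the liver are under hormonal control. In tears, lipocalins bind lipids that come off the ocular surface. Mup4 is a Mup known from exocrine glands of the head rather than from liver, Mup5 is a related Mup of exocrine glands, Obp1a and Obp1b encode odorant-binding proteins, Lcn3 and Lcn4 were described in the vomeronasal gland, and Lcn11 belongs to the lipocalin cluster of chromosome 2.

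The 7 genes sit at 3 places of the GRCm38 genome. Mup4 (chr4:59956804-59960710, minus strand) and Mup5 (chr4:61831319-61835233, minus strand) lie on chromosome 4, Obp1a (chrX:78085505-78091374, minus strand) and Obp1b (chrX:78186777-78192292, plus strand) on chromosome X, and Lcn3 (chr2:25765569-25768099, plus strand), Lcn11 (chr2:25777017-25780279, plus strand) and Lcn4 (chr2:26667674-26671282, minus strand) on chromosome 2. The transcripts have 7 exons each, apart from Lcn11 with 6, and their coding sequences run from 489 bases (Obp1a) to 561 bases (Lcn3). Coding sequences of Mup4 and Mup5 were identical at 497 of 534 aligned bases (93.1%), those of Obp1a and Obp1b at 365 of 488 (74.8%) and those of Lcn3 and Lcn4 at 335 of 527 (63.6%). Sequence shared with other genes bears on how far the counts can be read as those of 1 gene. Each transcript was cut into all of its stretches of 75 bases, the read length, and the stretches found unchanged in another gene were counted. Of Mup4, 0.354% of the stretches also occurred in another gene (Mup5), and of Mup5 4.58% occurred in other Mup genes. No stretch of Obp1a, Lcn3, Lcn4 or Lcn11 was shared. All sequences here and below are those of the GRCm38 reference, and whether BALB/c and NOD.H-2b carry them was not tested.

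Obp1b was different, since 475 of its 723 stretches (65.7%) occurred also in the transcript of Gm14743 (chrX:78240462-78245921, minus strand), an odorant-binding-like gene nearby. The coding sequences of Obp1b and Gm14743 differed at 1 of 513 bases, G482A, counted from 1 at the first base of the start codon with the base of Obp1b first. In the GRCm38 reference this is the only coding difference by which a read can be assigned to one gene or the other. The 31 bases around it (coding bases 467 to 497) are shown with the differing base in capitals.
Obp1b: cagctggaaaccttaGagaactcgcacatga
Gm14743: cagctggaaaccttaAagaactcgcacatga
Over the whole transcripts, coding sequence included, 752 of 757 aligned bases were identical, with 42 bases unaligned at ends or gaps. How reads that match both genes were treated in counting is not given in the sources used here, so values of Obp1b are given below also as the sum with Gm14743.

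The 2 Obp genes and the copies next to them also share sequence upstream of their starts. The stretches below run from base 120 to base 15 before the start that RefSeq gives (GRCm38.p6) and are printed on the strand of the gene, with the match to TATAAA, the core of the TATA box that many strongly expressed genes carry, in capitals.
Obp1a (chrX:78091389-78091494, minus strand): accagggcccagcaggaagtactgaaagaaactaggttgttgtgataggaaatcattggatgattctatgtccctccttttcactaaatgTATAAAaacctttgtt
Gm5938 (chrX:78125347-78125452, plus strand): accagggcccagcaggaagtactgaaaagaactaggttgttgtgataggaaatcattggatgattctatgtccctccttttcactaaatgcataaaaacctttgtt
Obp1b (chrX:78186688-78186793, plus strand): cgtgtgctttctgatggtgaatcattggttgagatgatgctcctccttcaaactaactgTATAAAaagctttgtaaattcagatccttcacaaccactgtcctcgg
Gm14743 (chrX:78245936-78246041, minus strand): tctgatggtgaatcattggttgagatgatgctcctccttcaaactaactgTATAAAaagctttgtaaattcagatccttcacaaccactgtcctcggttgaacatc
Over the 250 bases before the start, Obp1a and Gm5938, an odorant-binding-like gene beside it, were identical at 231 of 250 aligned bases (92.4%), and Obp1b and Gm14743 at all 241 of 241 aligned bases, while Obp1a and Obp1b were identical at 150 of 219 (68.5%). TATAAA was searched on both strands. It was found 30 bases before the start of Obp1a, 61 before that of Obp1b and 70 before that of Gm14743, and no match was found in Gm5938. Among the members elsewhere it lay 27 bases before the start of Mup4 and 29 before that of Lcn3, and there was no match in Lcn4 or Lcn11. These distances are from the RefSeq starts, which differ from those of GENCODE for Obp1b, Mup4 and Lcn3. The stretches of Obp1b and Mup4 reach into the genes as GENCODE places them (from chrX:78186777 and up to chr4:59960710), and the match of Mup4 lies inside. For Mup4 and Lcn3 these are the same kind of stretch.
Mup4 (chr4:59960682-59960787, minus strand): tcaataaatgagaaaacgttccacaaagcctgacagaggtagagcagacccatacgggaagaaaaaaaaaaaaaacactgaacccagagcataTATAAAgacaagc
Lcn3 (chr2:25765413-25765518, plus strand): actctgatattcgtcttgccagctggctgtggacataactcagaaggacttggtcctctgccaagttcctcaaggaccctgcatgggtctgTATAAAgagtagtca
A match was found in 12.4% of 32851 RefSeq promoters of this length. The letters of a STAT site (TTCNNNGAA, 7.02% of promoters) were found before none of the 6 members with an entry.

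Libraries held between 49480781 and 103936830 counts. The tissue label was checked with markers: the summed level of 14 epithelial genes ranged from 1255 to 2379 CPM over the 18 mice, the mouse saliva markers Prb1 and Bpifa2 had at most 0 and 3 counts, and the liver marker Alb had 0 counts in all mice. The other salivary-list genes, Amy1 and the secreted carbonic anhydrase Car6, which the LG also makes, were not near 0, and the list summed to 1199 to 1380 CPM in BALB/c against 159 to 188 in NOD.H-2b among 2M mice. Skeletal muscle and adipocyte lists summed to at most 1.47 and 5.54 CPM. Inflammation separated the strains. All 12 tested lymphocyte genes of 14 on the list at 2M, and all 14 at 4M and at 6M, were upregulated in NOD.H-2b, and their summed level ranged from 15.4 to 22.1 CPM in the BALB/c mice and from 129 to 382 in the NOD.H-2b mice of 2M, and from 167 to 297 and from 1453 to 1930 in those of 6M. The epithelial genes summed to 2234 to 2379 CPM in BALB/c and 2112 to 2351 in NOD.H-2b at 2M, and to 1992 to 2232 against 1255 to 1613 at 6M. In a whole gland, fewer cells of a type and less RNA per cell cannot be told apart, and the part of these shifts in the results below was not tested.

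Levels are CPM, the count of a gene scaled to a fixed library size with TMM factors, and a level compared between genes is divided by exon length in kb. Together the 7 genes took 5.59% ± 0.73 of all counts (SD, n = 3) in BALB/c against 6.61% ± 0.40 in NOD.H-2b at 2M. The shares were 7.28% ± 1.14 against 6.58% ± 0.36 at 4M and 6.63% ± 0.57 against 4.44% ± 0.52 at 6M. The lowest share was thus that of NOD.H-2b at 6M, whose 3 mice (3.90% to 4.95%) lay below all 3 BALB/c mice of that age (5.98% to 7.08%). Mup4 and Obp1a carried nearly all of it. Among all genes Mup4 ranked between 3 and 9 by counts in the 18 mice, Obp1a between 3 and 23, and Lcn11 between 22 and 75.

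The order of the members by level per kb ran from the most abundant genes of the gland to the limit of detection. In BALB/c at 2M Mup4 stood at 49041 CPM per kb, Obp1a at 19160, Lcn11 at 1953, Mup5 at 57.5, Obp1b at 13.6 and Lcn3 at 0.0816, with no count for Lcn4. In NOD.H-2b at 2M the order was Mup4 (46460), Obp1a (19855), Lcn11 (6709), Obp1b (142), Mup5 (7.38) and Lcn3 (0.968), again with no count for Lcn4. Mup5 and Obp1b, the latter counted alone, thus changed places between the strains. Gm14743, which shares most of the sequence of Obp1b, stood at 90.1 CPM per kb among the BALB/c mice of 2M. Among the NOD.H-2b mice of that age it stood at 245. With Gm14743 added, Obp1b was above Mup5 for both strains, so the places did not change. At 4M Obp1a and Mup4 could not be ordered: Obp1a was at 50965 ± 17465 CPM per kb (SD, n = 3) and Mup4 at 41664 ± 3266 in BALB/c, and they were at 38739 ± 7922 and 32508 ± 6384 in NOD.H-2b.

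**Figure D1:**
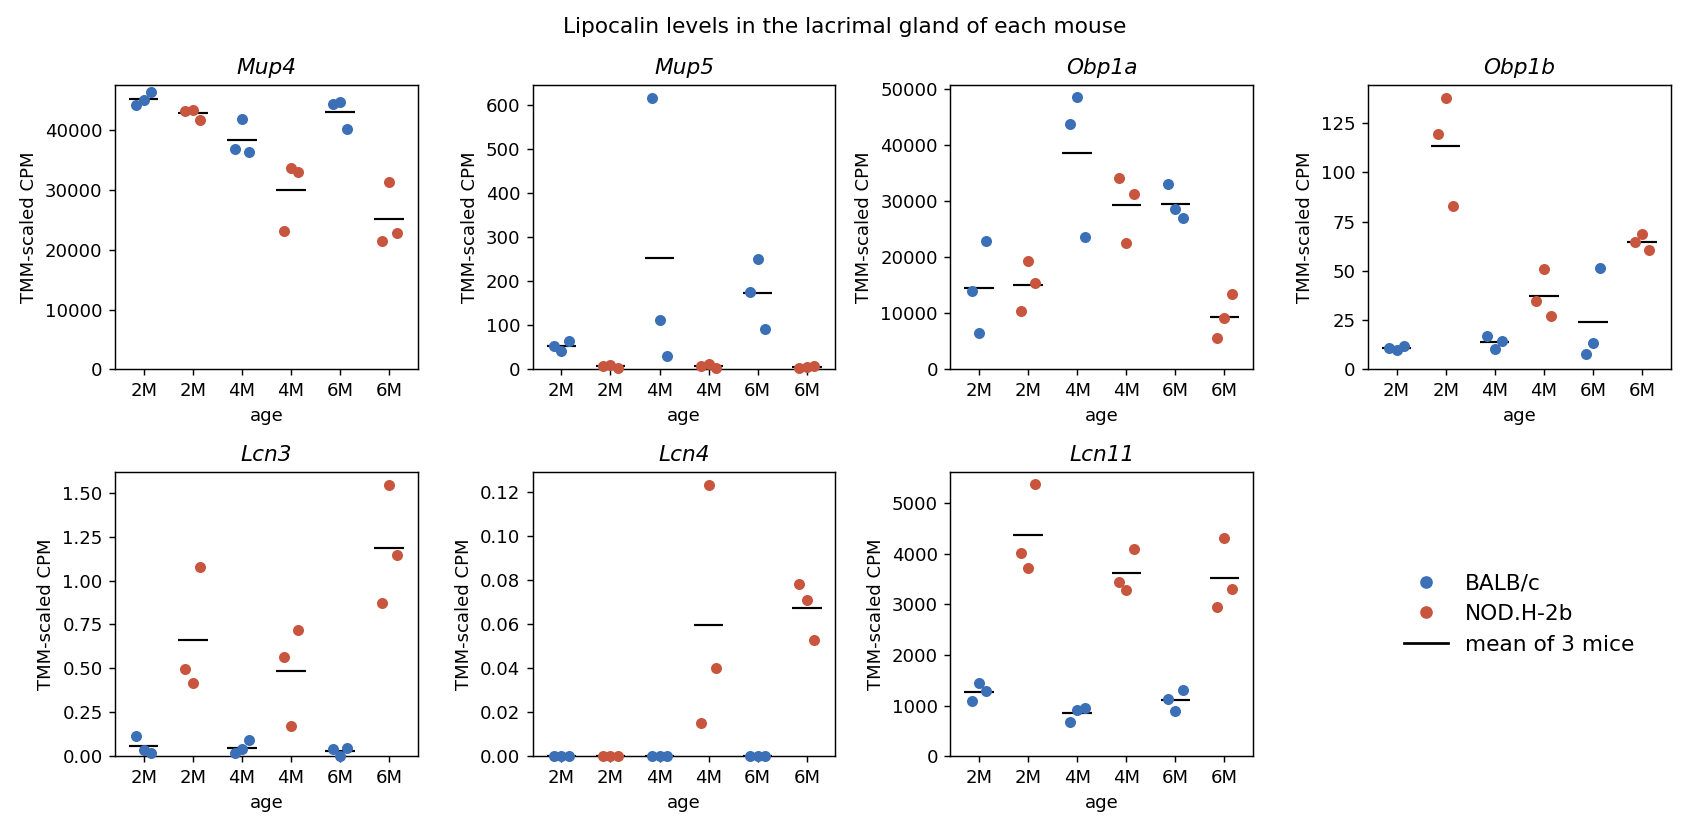
TMM-scaled CPM (linear axes from 0) of each of the 7 lipocalins in each mouse, by age, with BALB/c in blue, NOD.H-2b in red and a line at the mean of 3 mice. Lcn11 and Lcn3 are higher in every NOD.H-2b mouse than in every BALB/c mouse of its age, Mup5 is lower in every one, and Mup4 and Obp1a separate the strains most clearly at 6M.

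The comparison of strains asked which genes differ between the inflamed and the healthy gland at each age. At 2M, 4 of the 6 tested members were DEGs (adjusted p under 0.05 in edgeR's quasi-likelihood test and at least 2-fold), against 15.8% of all genes tested, with 3 higher in NOD.H-2b (12% of all genes) and 1 lower (3.76%). At 4M the members' count was 3, all higher (background 20.3% for both directions, 15.6% higher and 4.72% lower). At 6M it was 4, with 2 higher and 2 lower (background 24.8%, 18.8% and 6.03%). Lcn4 had too few counts to be tested at any age. Lcn3, a DEG at each age, passed the filter on low counts only through the NOD.H-2b mice. The 3 mice of one strain did not overlap with the 3 of the other for 5, 5 and 6 of the 6 tested members at 2M, 4M and 6M, against 52.7%, 55.5% and 63.8% of all genes tested. The median log2 fold change of the tested members was 0.94, 0.54 and 0.34 at the 3 ages, beside 0.01, 0.00 and 0.00 over all genes tested. These medians include Lcn3. Without Lcn3 the middle value was 0.08 (Obp1a) at 2M, -0.35 (Mup4) at 4M and -0.77 (Mup4) at 6M.

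**Figure D2:**
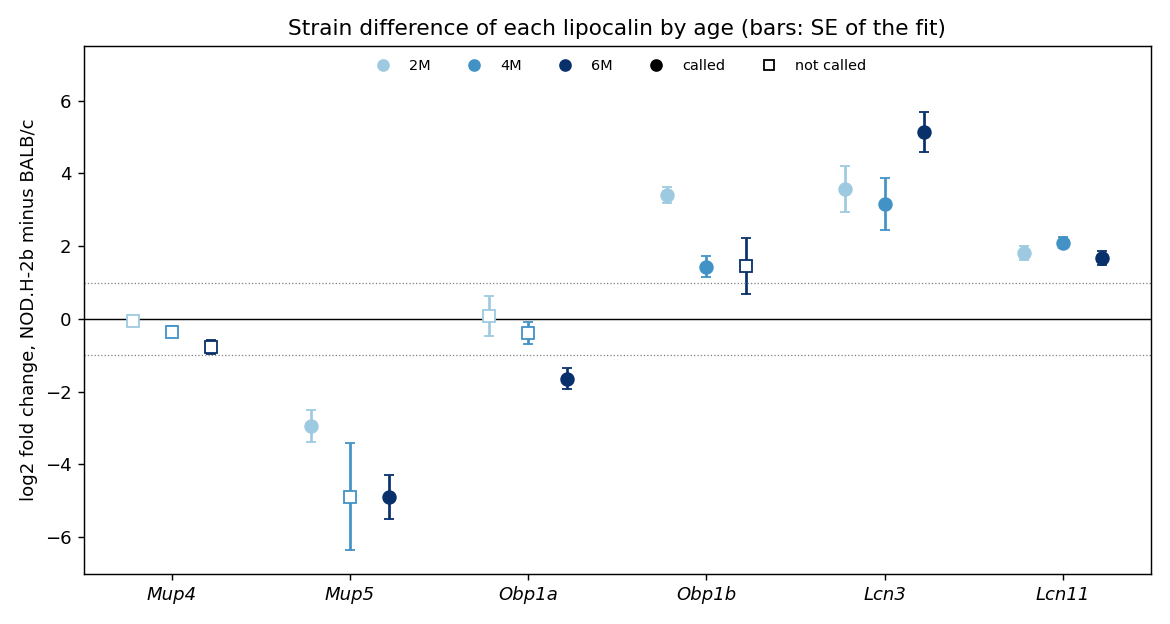
log2 fold change of NOD.H-2b minus BALB/c at 2M, 4M and 6M for the 6 tested members, with the SE of the fit as bars, filled circles for DEGs, open squares for the others and dotted lines at a 2-fold change. Lcn3 and Lcn11 are DEGs at all 3 ages, Obp1b at 2M and 4M, Mup5 at 2M and 6M, Obp1a at 6M and Mup4 at none.

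Mup4 was the most abundant member at 2M, and its strain difference opened with age. At 2M the BALB/c mice had 44270, 45026 and 46353 CPM and the NOD.H-2b mice 43290, 43472 and 41748. At 4M the values were 36961, 41876 and 36406 CPM in BALB/c against 23191, 33758 and 32967 in NOD.H-2b. At 6M they were 44457, 44700 and 40183 against 21519, 31278 and 22811. At each age all NOD.H-2b mice lay below all BALB/c mice, narrowly at 2M, whereas at 6M the highest NOD.H-2b mouse (31278 CPM) stayed far under the lowest BALB/c mouse (40183 CPM). The log2 fold change was -0.05 (SE 0.05, edgeR adjusted p = 0.429) at 2M, -0.35 (SE 0.15, adjusted p = 0.083) at 4M and -0.77 (SE 0.19, adjusted p = 0.0061) at 6M, so at 6M it passed the FDR but not the 2-fold threshold. The sign at 2M depended on scaling. With library totals alone the value was 0.13 (edgeR adjusted p = 0.0493), under which the median of all genes moved to 0.20. As a share of counts, the NOD.H-2b mice of 2M (4.45% to 4.62%) lay above the BALB/c mice of 2M (4.07% to 4.18%).

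Mup4 was also the only 1 of 6 tested members whose strain difference passed the edgeR test of a change between ages, while DESeq2's Wald test called 3. In the fit of all 18 mice, the strain difference at 6M minus that at 2M was -0.71 on the log2 scale (SE 0.19, edgeR adjusted p = 0.0199), where 16.1% of all genes passed. It was -0.61 with an adjusted p of 0.0586 without the first NOD.H-2b mouse of 6M, the lowest of its group. Epithelial genes of the same glands had a median strain log2 fold change of -0.01 at 2M, -0.38 at 4M and -0.43 at 6M over the 14 on the list, and the part of that shift in the change of Mup4 was not tested. Elf5, an epithelial transcription factor of secretory glands, was the only one of the 14 that was downregulated at every age, with log2 fold changes of -1.05, -1.57 and -1.82 (SE 0.07, 0.08 and 0.14). Krt19 went the other way, upregulated at 2M (1.80) and 6M (1.52) at no more than 65 counts, and Cldn7 was downregulated at 4M (-1.14).

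Mup5, in contrast to its neighbour in sequence, was lower in NOD.H-2b from the first age on. BALB/c mice had 52.6, 41.7 and 65.1 CPM at 2M, 616, 112 and 30.9 at 4M, and 177, 252 and 92.0 at 6M. The NOD.H-2b mice had 7.10, 9.91 and 3.48 CPM at 2M, 7.75, 13.6 and 3.92 at 4M, and 3.27, 5.67 and 8.64 at 6M. No NOD.H-2b mouse of any age reached the lowest BALB/c mouse (30.9 CPM). NOD.H-2b mice had 196 to 880 counts of Mup5, beside at least 1293649 of Mup4, with which Mup5 shares sequence. The part of reads from Mup4 in the Mup5 counts, and so in the fold changes below, was not tested. Mup5 was downregulated 7.65-fold at 2M (log2 -2.93, SE 0.44, edgeR adjusted p = 0.00746) and 29.9-fold at 6M (log2 -4.90, SE 0.61, adjusted p = 0.00231). At 4M the log2 fold change was -4.88 but with an SE of 1.47 and an adjusted p of 0.061, and the 3 BALB/c mice differed 20.0-fold among themselves, with 33087 counts in the first, 5530 in the second and 2063 in the third. Leaving out the first of these mice gave -3.08 at 4M (adjusted p = 0.0805) and leaving out the third gave -5.41 (adjusted p = 0.0395). Mup5 was called at 4M by DESeq2's Wald test (-4.89, adjusted p = 9.44e-05) and by the edgeR fit of all 18 mice (-4.89, adjusted p = 0.00124).

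The change of the Mup5 difference from 2M to 6M did not pass the test (log2 -1.96, SE 1.25, adjusted p = 0.315). Within BALB/c Mup5 was at 53.2 ± 11.7 CPM at 2M (SD, n = 3) and 174 ± 80.0 at 6M, with no overlap of the 2 groups but an edgeR adjusted p of 0.141. Without the third BALB/c mouse of 6M, the lowest of its group, the log2 fold change was 2.01 with an adjusted p of 0.042, and over all mice left out in turn it ranged from 1.33 to 2.01.

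Obp1a, the most abundant odorant-binding protein gene of the gland, did not separate the strains at 2M or 4M and was downregulated in NOD.H-2b at 6M. At 2M the BALB/c mice had 13989, 6556 and 22967 CPM and the NOD.H-2b mice 10471, 19243 and 15377. The 4M values were 43633, 48531 and 23579 CPM against 34163, 22616 and 31199. At 6M they were 33099, 28590 and 26959 CPM in BALB/c against 5551, 9155 and 13499 in NOD.H-2b. Both strains thus overlapped at the earlier ages, whereas at 6M the highest NOD.H-2b mouse (13499 CPM) lay well below the lowest BALB/c mouse (26959 CPM). The log2 fold change was 0.08 (SE 0.55, edgeR adjusted p = 0.93) at 2M, -0.39 (SE 0.30, adjusted p = 0.363) at 4M and -1.65 (SE 0.29, adjusted p = 0.00111) at 6M, a 3.13-fold lower level. The test of the change in strain difference from 2M to 6M gave -1.71 (SE 0.61, adjusted p = 0.0761), which did not pass. Without the third BALB/c mouse of 2M, the highest of its group, it was -2.26 with an adjusted p of 0.03, the far end of a range of -2.26 to -1.42 on leaving out 1 mouse.

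Obp1a also spread widely among the 2M mice of BALB/c, at 3.50-fold between the lowest and the highest. Its mean was 14504 ± 8218 CPM at 2M and 38581 ± 13221 at 4M in BALB/c (SD, n = 3) without overlap, but the edgeR adjusted p was 0.239. In NOD.H-2b it was 15030 ± 4396 CPM at 2M, 29326 ± 5997 at 4M and 9401 ± 3980 at 6M, so that the 4M mice lay above those of both other ages. Neither step passed in edgeR, with a log2 fold change of 0.97 (SE 0.26, adjusted p = 0.0543) from 2M to 4M and -1.63 (SE 0.32, adjusted p = 0.304) from 4M to 6M. The first step passed without the second NOD.H-2b mouse of 2M (1.19, adjusted p = 0.0279) and without the second of 4M (1.13, adjusted p = 0.046). For the second step DESeq2's Wald test gave -1.64 with an adjusted p of 6.64e-07.

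Gm5938, which lies within 100 kb of Obp1a and has the upstream sequence printed above, followed Obp1a from mouse to mouse. Pearson's r of the log2 CPM was 0.997 over the 9 BALB/c mice and 0.987 over the 9 NOD.H-2b mice, and no other of 19116 genes came as close (next were Tpt1 and Natd1, with a smaller r of 0.82 and 0.79). The points share their libraries and scaling, so these values are descriptions. Of the 75-base stretches of Obp1a none was found in Gm5938. Gm5938 was at 6093 ± 3377 CPM in BALB/c against 6349 ± 1954 in the other strain at 2M, and at 11296 ± 999 against 3010 ± 1142 at 6M (SD, n = 3). It was downregulated 3.74-fold at 6M (log2 -1.90, SE 0.26, edgeR adjusted p = 0.000301), and its strain difference changed between 2M and 6M by -1.98 (SE 0.62, adjusted p = 0.0466).

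**Figure D3:**
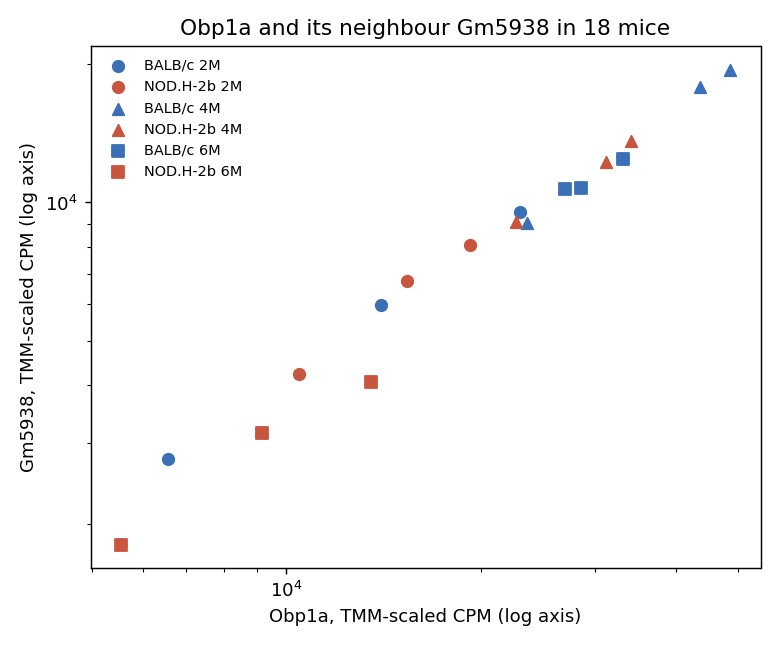
Level of Gm5938 against that of Obp1a in each of the 18 mice (TMM-scaled CPM, both axes logarithmic), with strain by colour and age by symbol. The points fall along one line in both strains, and the 3 NOD.H-2b mice of 6M are among the lowest for both genes together with the 2M mice.

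Obp1b was read as upregulated in NOD.H-2b when counted alone. BALB/c mice had 10.8, 10.0 and 11.8 CPM at 2M, 16.9, 10.5 and 14.6 at 4M, and 8.00, 13.2 and 51.2 at 6M. NOD.H-2b mice had 120, 138 and 82.6 CPM at 2M, 34.7, 50.8 and 26.9 at 4M, and 64.7, 68.9 and 60.7 at 6M. Every NOD.H-2b mouse was above every BALB/c mouse of its age, though at 6M the third BALB/c mouse came near. The difference was 10.6-fold at 2M (log2 3.41, SE 0.23, edgeR adjusted p = 0.000247) and 2.70-fold at 4M (log2 1.44, SE 0.29, adjusted p = 0.0121). At 6M the log2 fold change was 1.45 (SE 0.77, adjusted p = 0.182), and without the third BALB/c mouse of 6M it was 2.63 with an adjusted p of 0.000128. Its strain difference at 6M minus that at 2M was -1.96 (SE 0.74, adjusted p = 0.0934), with values from -2.43 (adjusted p = 0.0254, without the first BALB/c mouse of 6M) to -0.82 (adjusted p = 0.195, without the third) on leaving out 1 mouse. The 4M call was lost without the first NOD.H-2b mouse of 4M (1.49, adjusted p = 0.0542).

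Its near-identical copy Gm14743 moved differently. In BALB/c it had 81.6, 34.1 and 89.5 CPM at 2M, 952, 509 and 324 at 4M, and 185, 847 and 931 at 6M. In NOD.H-2b it had 182, 249 and 128 CPM at 2M, 83.4, 190 and 106 at 4M, and 59.6, 146 and 156 at 6M. The strain log2 fold change was 1.47 (adjusted p = 0.0836) at 2M, -2.22 (adjusted p = 0.0346, downregulated) at 4M and -2.44 (adjusted p = 0.0543) at 6M in the edgeR test. The strain difference of Gm14743 at 6M minus that at 2M was -3.91 (SE 0.92, adjusted p = 0.016).

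Obp1b thus took 11.6% to 22.7% of the counts of both genes in BALB/c and 35.7% to 39.6% in NOD.H-2b at 2M, 1.74% to 4.31% against 20.3% to 29.4% at 4M, and 1.53% to 5.21% against 28.1% to 52.1% at 6M. Added together, both genes were at 79.3 ± 30.7 CPM in BALB/c against 300 ± 87.8 in NOD.H-2b for the 2M mice (SD, n = 3), 609 ± 324 against 164 ± 67.0 for those of 4M, and 678 ± 425 against 185 ± 52.7 for those of 6M. Fitted as 1 gene, they gave a log2 fold change of -1.88 (edgeR adjusted p = 0.0459) at 4M and -1.87 (adjusted p = 0.0792) at 6M, the opposite sign to Obp1b alone. At 2M the sum gave 1.94 (adjusted p = 0.0284), the same sign as Obp1b alone but a smaller size. Gm14743 made up most of the sum in all mice but the NOD.H-2b mouse of 6M in which Obp1b took 52.1%. How the shared reads were divided between the copies in counting, and its part in these values, was not tested.

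**Figure D4:**
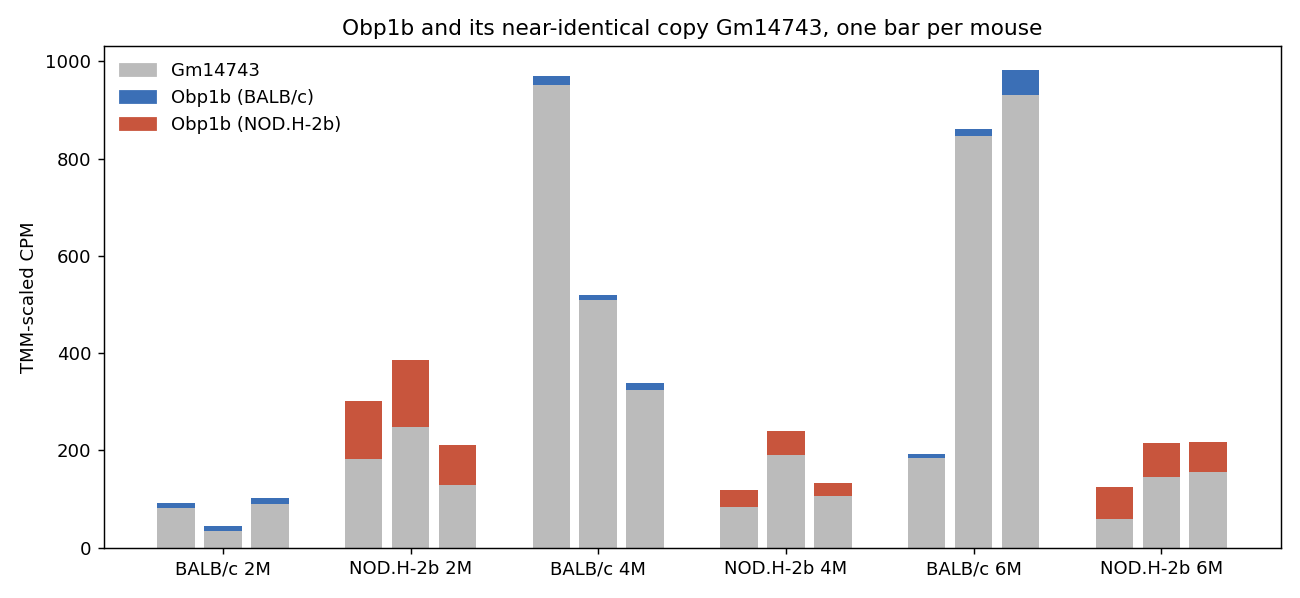
TMM-scaled CPM of Gm14743 (grey) and Obp1b (coloured by strain) stacked in 1 bar per mouse, with the axis from 0. The Obp1b part is larger in NOD.H-2b at every age, while the total of the bar is larger in NOD.H-2b at 2M and in most BALB/c mice at 4M and 6M.

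Lcn11 and Lcn3, which lie 8918 bases apart in the lipocalin cluster of chromosome 2, were the members upregulated in NOD.H-2b at all ages. Lcn11 had 1084, 1440 and 1297 CPM in the BALB/c mice of 2M, 680, 916 and 953 at 4M, and 1138, 885 and 1299 at 6M. The NOD.H-2b mice had 4016, 3725 and 5382 CPM at 2M, 3449, 3286 and 4096 at 4M, and 2940, 4317 and 3306 at 6M. The lowest of the 9 NOD.H-2b mice (2940 CPM) was well above the highest of the 9 BALB/c mice (1440 CPM). Lcn11 was higher 3.50-fold at 2M (log2 1.81, SE 0.19, edgeR adjusted p = 0.000952), 4.28-fold at 4M (log2 2.10, SE 0.15, adjusted p = 1.2e-05) and 3.19-fold at 6M (log2 1.68, SE 0.19, adjusted p = 4.38e-05). No change of this difference from 2M to 6M passed the test (-0.12, SE 0.27, adjusted p = 0.797).

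Lcn3 was a rare transcript, and its values are given as counts. BALB/c mice had 6, 2 and 1 counts at 2M, 1, 2 and 6 at 4M, and 4, 0 and 2 at 6M. NOD.H-2b mice had 30, 27 and 68 counts at 2M, 37, 11 and 36 at 4M, and 67, 87 and 65 at 6M. The groups did not overlap at any age, and no BALB/c mouse had more than 6 counts. Lcn3 thus passed the filter on low counts only through the NOD.H-2b mice. With at least 10 counts asked of every mouse it was not tested, and 3, 2 and 3 members were called at 2M, 4M and 6M. The log2 fold change was 3.57 (SE 0.63, edgeR adjusted p = 0.000928) at 2M, 3.16 (SE 0.71, adjusted p = 0.00528) at 4M and 5.13 (SE 0.55, adjusted p = 3.47e-05) at 6M, with a size that depends on the few BALB/c counts. On leaving out 1 mouse it ranged from 3.02 to 4.56 at 2M (the highest without the first BALB/c mouse), from 2.77 to 3.94 at 4M (the highest without the third BALB/c mouse) and from 4.70 to 5.61 at 6M. From 2M to 6M in NOD.H-2b its log2 fold change was 0.82 (SE 0.39, adjusted p = 0.125), and ranged from 0.58 to 1.37 on leaving out 1 mouse, passing only without the third mouse of 2M (adjusted p = 0.0279).

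Lcn4 was detected in NOD.H-2b only at 4M and 6M. It had no count in any BALB/c mouse or in NOD.H-2b at 2M, then 1, 8 and 2 counts in the NOD.H-2b mice at 4M and 6, 4 and 3 at 6M. Against a floor of 3 counts over the BALB/c group, the observed level in NOD.H-2b was 3.45-fold higher at 4M and 4.22-fold higher at 6M. The floor covers counting error of the BALB/c group only. The NOD.H-2b counts entered as observed, with 8 of those at 4M from 1 mouse, so these values are not lower bounds. The gene did not pass the filter on low counts. Without that filter Lcn4 was called between strains at 4M (edgeR adjusted p = 0.0348) and 6M (adjusted p = 0.012).

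Of the genes within 100 kb of a member that were tested at every age, 2 around Lcn11 and Lcn3 were DEGs at every age besides the member itself: the other of the pair and the antisense gene A230005M16Rik (log2 fold change 1.28, 1.33 and 1.33 at 2M, 4M and 6M). Of the tested neighbours of Mup4 (2), Obp1a (2), Obp1b (3) and Lcn4 (3) none was, and none of the 7 neighbours of Mup5 had enough counts to be tested at every age. A230005M16Rik overlaps Bmyc on the other strand and not Lcn11 or Lcn3. Bmyc was a DEG at no age, with log2 fold changes of 0.18, 0.01 and -0.16. Strand was not stated to be used in counting, so reads of A230005M16Rik and Bmyc cannot be told apart where they overlap.

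Between ages at most 1 member was a DEG in any comparison, and the share of all genes that were DEGs was also lower than between strains. In BALB/c none of the 5 tested members was a DEG from 2M to 4M (background 2.37% of genes), from 4M to 6M (0.0361%) or from 2M to 6M (1.68%), although at an unadjusted p under 0.05 there were 4416, 2583 and 3511 genes in these comparisons. In NOD.H-2b 1 of 6 tested members was a DEG from 2M to 4M (6.6% of genes), none from 4M to 6M (0.00555%) and none from 2M to 6M (12.5%). The exception was Obp1b, downregulated 3.00-fold from 2M to 4M (log2 -1.58, SE 0.32, edgeR adjusted p = 0.0344). This call was lost on leaving out any of the 3 mice of 2M or the first or the third mouse of 4M, with log2 fold changes from -1.77 to -1.42 and adjusted p from 0.0583 to 0.13. It was also lost without the filter on low counts (-1.62, adjusted p = 0.0697) and when Gm14743 was added (-0.86, adjusted p = 0.19).

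Mup4 and Obp1b passed the FDR without reaching 2-fold from 2M to 6M in NOD.H-2b, with log2 fold changes of -0.78 (SE 0.19, edgeR adjusted p = 0.0111) and -0.82 (SE 0.18, adjusted p = 0.0125). In BALB/c Mup4 changed by -0.24 (SE 0.06, adjusted p = 0.0229) from 2M to 4M and stood at -0.06 (adjusted p = 0.597) from 2M to 6M. The level of Lcn11 in the 2M, 4M and 6M mice of NOD.H-2b was 4375 ± 885, 3610 ± 428 and 3521 ± 714 CPM (SD, n = 3), with overlapping groups.

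Other Mup genes had few counts. How much sequence these genes share with each other was not measured, and how reads with several matches were counted is not given. A low count here therefore cannot show that a gene is silent. Of the 20 listed, only Mup6 and Mup3 had enough counts to be tested, and neither was a DEG between strains at any age. Mup6 was at 5.16 ± 0.87 CPM in BALB/c against 4.10 ± 0.54 in NOD.H-2b among 2M mice (SD, n = 3), and at 8.59 ± 2.20 against 8.13 ± 2.08 among 6M mice. Liver Mup genes such as Mup1 and Mup7 had at most 1 and 2 counts in any mouse, beside at least 1293649 for Mup4. Of 18 lipocalin genes outside the Mup and Obp1 families, 4 were tested. Lcn2, which binds bacterial siderophores, was upregulated in NOD.H-2b at 2M (log2 1.13, SE 0.18, edgeR adjusted p = 0.00157) and 4M (log2 1.38, SE 0.34, adjusted p = 0.0211), and at 6M it stood at 0.56 (adjusted p = 0.0535). Ptgds, prostaglandin D synthase of the lipocalin family, was downregulated at every age, with log2 fold changes of -2.38, -1.74 and -1.93 (SE 0.43, 0.36 and 0.57). Apod and C8g were no DEGs.

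Among 5 receptors known or proposed for lipocalins or their ligands, Stra6l, a receptor for retinol-binding protein, was upregulated at every age, with log2 fold changes of 4.16, 3.82 and 3.86 (SE 0.71, 0.55 and 0.46) at no more than 117 counts. Of the others, Stra6 was upregulated at 4M and 6M, Lmbr1l, a lipocalin receptor, at 6M, and Slc22a17, the receptor of Lcn2, was downregulated at 4M and 6M.

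The 8 genes followed for the control of Mup genes in liver, hormonal or other, were tested at every age. Zhx2, a regulator of several liver genes that is known to be reduced in BALB/cJ mice by a retroviral insertion, was the only one that was a DEG at all ages. Whether and in which direction Zhx2 acts on the members in the LG was not tested. Its log2 fold change was 3.01 (SE 0.09, edgeR adjusted p = 1.31e-09) at 2M, 3.06 (SE 0.15, adjusted p = 8.59e-07) at 4M and 3.03 (SE 0.11, adjusted p = 7.55e-08) at 6M, higher in NOD.H-2b. Prlr, the prolactin receptor, was downregulated at 4M and 6M (log2 -1.42 and -1.23) and stood at -0.96 at 2M. Ghr, Stat5a, Stat5b, Nr3c1, Thra and Thrb were no DEGs at any age. The median over the 8 genes was 0.11, -0.056 and 0.0096 on the log2 scale at 2M, 4M and 6M.

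Across mice of 1 strain the members did not move as a block. Over the 9 mice of each strain, Mup4 and Lcn11 had an r of 0.59 (BALB/c) and 0.67 (NOD.H-2b), Mup5 and Lcn3 of -0.63 and -0.66, and Obp1a and Obp1b of 0.17 and -0.52, given as descriptions over libraries that share their scaling. The genes closest to each member in both strains were Ephx4, Slc17a5 and Tmem52 for Mup4 (the smaller r of both strains 0.93, 0.92 and 0.91) and Slc10a7, Lrrc59 and Rilp for Lcn11 (0.90, 0.89 and 0.87). For Mup5 they were Pdcd4, Rpl17-ps3 and Gm16124 (0.81, 0.80 and 0.79), for Obp1b Lims2, Gfra3 and Tnfrsf21 (0.83, 0.83 and 0.78) and for Lcn3, at few counts, Gm22061, Shc2 and Mex3a (0.75, 0.72 and 0.71).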

How the data were processed

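Libraries of 18 LGs, made from total RNA without ribosomal RNA, were sequenced as paired reads of 75 bases. The authors ran cutadapt and FastQC, then STAR on GRCm38 and HTSeq to obtain counts per Ensembl gene (per the labels and the study's methods), which were used as deposited. A second deposited table of log2 values was not used. Which annotation release was used, whether strand was counted and how reads with several matches were handled are not given in the sources used here. Gene names and coordinates come from GENCODE M21, which holds 54079 of the 54232 genes, and upstream sequences from RefSeq (GRCm38.p6), where 6 of the 7 members matched and Mup5 did not.

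Counts were fitted in R 4.3.3 with edgeR 4.0.16 (TMM, filterByExpr, robust quasi-likelihood test, Benjamini-Hochberg adjustment over all genes tested), separately on the 6 mice of each of 9 comparisons and on all 18 mice for strain by age, the strain difference at 6M minus that at 2M. DEGs had an adjusted p under 0.05 and at least a 2-fold change, or for strain by age the adjusted p alone. Each SE is the absolute log2 fold change divided by the square root of F. Totals ranged from 49480781 to 103936830 counts per mouse, and pairs of replicates differed by more than counting error (chi-square per gene of at least 16.4), so precision was set by the 3 mice per group. That these mice came from separate litters is not stated.

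Alternatives were RLE, upper-quartile and library-total scaling, other filters, DESeq2 1.42.0, glmTreat, 1 fit of all mice, the replicate number as a block and leaving out each mouse. Counting Obp1b with Gm14743 as 1 gene was added after their values were seen. Some steps, among them the main edgeR fit, were tested on simulated data. The members and gene lists were chosen with earlier results of these data known, and 1 listed gene is not reported here. Named were all members, up to 4 genes per list with the largest mean change among DEGs of every age, the 3 genes most like each member, up to 4 neighbours within 100 kb called at every age, and genes needed to account for a list. Gm14743, Gm5938 outside the likeness rule, and list genes called at some ages were named after their values were seen.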

Additional observations from a re-analysis of the deposited data

Results flagged for a closer look

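Of the results above, 3 were flagged because the strain difference itself differed between ages in the edgeR fit of all 18 mice. For Mup4 the strain difference at 6M minus that at 2M was -0.71 on the log2 scale (adjusted p = 0.0199), with all 3 NOD.H-2b mice below all 3 BALB/c mice at 6M. For Gm5938, the gene beside Obp1a, the value was -1.98 (adjusted p = 0.0466), and for Gm14743, the near-identical copy of Obp1b, it was -3.91 (adjusted p = 0.016). The counts of Gm14743 and Obp1b hold reads that both genes could give, and the part of these reads in the value was not tested.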

How the results depend on the processing

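Of 513 values of single members under other settings, 493 kept their direction and side of the threshold, 6 lost a call, 8 gained one and 6 changed sign. Leaving out 1 mouse at a time changed the sign in 15 of 414 values, none of them a call. With library totals alone, the median of all genes moved from 0.01, 0.00 and 0.00 to 0.20, 0.15 and 0.38 in the strain comparisons at 2M, 4M and 6M, and the sign changed for Mup4 at 2M (0.13), Lcn11 from 4M to 6M in NOD.H-2b (0.12) and Lcn11 in strain by age (0.060). With Obp1b and Gm14743 as 1 gene, Obp1b reversed at 4M (-1.88) and 6M (-1.87), strain by age had 2 members called in place of 1, and NOD.H-2b 2M to 4M had 0 in place of 1, as it also had without a filter and with glmTreat. DESeq2 called 1 member in place of 0 from 2M to 6M in BALB/c (Mup5, 1.71) and from 4M to 6M in NOD.H-2b (Obp1a), and 3 in place of 1 in strain by age. Between strains at 4M, DESeq2 and the edgeR fit of all 18 mice each called 4 members in place of 3, with Mup5 added (-4.89 in each). The fit of all 18 mice also called 5 in place of 4 at 6M, with Obp1b added (1.41, edgeR adjusted p = 0.0352). Without a filter Lcn4 was called between strains, giving 4 members in place of 3 at 4M and 5 in place of 4 at 6M, and from 2M to 6M in NOD.H-2b, giving 1 in place of 0. On leaving out 1 mouse, the count of members called ranged from 0 to 1 in either strain from 2M to 6M, and from 0 to 2 from 2M to 4M in NOD.H-2b and in strain by age. The values that changed sign on leaving out 1 mouse ranged from -0.27 to 0.57 for Obp1a between strains at 2M, from -1.05 to 1.29 for Mup5 and from -0.41 to 1.22 for Obp1b between the BALB/c mice of 4M and 6M, as well as from -0.062 to 1.57 for Obp1b between those of 2M and 6M. In NOD.H-2b they ranged from -0.21 to 0.68 (Mup5) and from -0.87 to 0.078 (Lcn3) from 2M to 4M, from -0.91 to 0.0042 (Mup5) and from -0.21 to 0.076 (Lcn11) from 4M to 6M, and from -0.63 to 0.14 (Mup5) from 2M to 6M. In strain by age Lcn11 ranged from -0.30 to 0.052. The replicate numbers did not pair the mice, since not every same-numbered pair correlated above 0.1 in any comparison. With the replicate block, members called were 3, 2 and 4 between strains at 2M, 4M and 6M, since Mup5 at 2M (-2.97, adjusted p = 0.0648) and Obp1b at 4M (1.40, adjusted p = 0.0609) did not pass, and Mup5 from 4M to 6M in BALB/c changed sign (0.39). The causes of these changes were not tested. Depth limits Lcn3 and Lcn4, whose counts in BALB/c were at or near 0.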
